A study of Mus musculus with 2 samples.

Results

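The genes of the constitutive proteasome were described in 2 rhabdoid tumors (RT) of mice. Members were the protein-coding genes whose symbol starts with Psma to Psmg followed by a number, with Pomp and Psmf1 and without the 3 inducible immunoproteasome subunits Psmb8, Psmb9 and Psmb10, and 48 of the 55416 genes in the table met this rule. They comprised 14 constitutive core subunits, 17 subunits of the regulatory particle, 6 activators and regulators, 8 assembly chaperones, the tissue-restricted core subunits Psma8 and Psmb11, and Psmc3ip, a meiotic recombination cofactor that shares the name but is no subunit. Both tumors arose in Dppa3-cre::Smarcb1 Fl/+ mice on a C57BL/6 background, which carry 1 floxed Smarcb1 allele and express Cre recombinase from Dppa3, a locus active in primordial germ cells. Mice were followed until they showed symptoms or visible growths, and ages were not given in the sources used here. One tumor was labelled intracranial, at the trigeminal nerve, the other extracranial, in the facial maxillary region, and the MYC class was given to both. Each location was thus 1 tumor, and every difference below is a difference between 2 libraries with no replicate check.

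The library labelled intracranial held 34545846 read counts and the one labelled extracranial 26915696, and 3 counts equalled 0.0863 and 0.112 counts per 1000000 (CPM). Smarcb1, the targeted gene, which encodes a subunit of the SWI/SNF chromatin remodeler, had 365 and 530 counts, or 10.5 (95% counting interval 9.45 to 11.6) and 19.8 (18.2 to 21.6) CPM, so transcripts of the gene were present in both, and a count over the whole gene does not show whether the floxed exons were lost. Markers of extracranial tumor cells, taken from the study, went against the labels. Tnn, C1qtnf3, Prelp, Tlx2 and Postn summed to 2542 CPM in the intracranial and 922.4 CPM in the extracranial library. Of these 5, 4 were lower in the latter with an interval beyond 2-fold, against 15.6% of all genes tested in either direction. The libraries are therefore named by their labels throughout. They also differed in markers of other cells: genes of keratinocytes summed to 21254 and 0.598 CPM, and of skeletal muscle to 29.0 and 6.65 CPM. Genes of Schwann cells summed to 41.1 and 13.8 CPM, and of endothelium to 86.7 and 192.7 CPM. The neutrophil list summed to 708 and 0.934 CPM. In the library labelled intracranial most of it was S100a8 and S100a9 (258 and 416 CPM), with Camp at 1.67 and Ngp at 0.259 CPM. The B and plasma cell list summed to 3.25 and 25.9 CPM, with Cd79b alone at 1.64 and 22.7 CPM. Of its 6 genes, 3 had an interval above an equal ratio, and Cd79a was similar, at 0.04 (−1.04 to 1.09). Which cells carried these transcripts was not tested. In bulk RNA, fewer cells of a type and less RNA per cell cannot be told apart. Reads carried no molecular identifiers, so all intervals cover counting error only.

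The proteasome cuts proteins that have been tagged with ubiquitin into short peptides. Its core is a barrel of alpha rings, which gate the entrance, around beta rings, which hold the cutting sites. The regulatory particle caps the barrel, with a base whose ATPase ring unfolds the substrate and a lid that takes off the ubiquitin. Other caps, the activators, open the gate without ubiquitin, and dedicated chaperones put the core and the base together. Under interferon, inducible subunits replace the constitutive catalytic ones and yield the immunoproteasome, which serves antigen presentation. When proteasome activity falls short, the transcription factor NFE2L1 (NRF1) raises the subunit genes together through antioxidant response elements in their promoters. In tumor cells that make much protein, proteasome genes are commonly expressed at a high level.

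Sequences before the transcription start were read from the RefSeq promoter table of GRCm38.p6, an older build than the one the counts were made on, for 40 of the 48 members. Those of 4 members are shown because the results turn on them: the catalytic subunits Psmb5 and Psmb6, whose ratios lay on opposite sides of an equal level, the chaperone Psmd5 with the lowest ratio, and the activator Psme1 with the highest. Each run is the 250 bases upstream of the start, 5′ to 3′ on the strand of the gene, and capitals mark the CRE-like element TGACG or its reverse complement CGTCA.
Psmb5 (chr14:54617996-54618245, minus strand): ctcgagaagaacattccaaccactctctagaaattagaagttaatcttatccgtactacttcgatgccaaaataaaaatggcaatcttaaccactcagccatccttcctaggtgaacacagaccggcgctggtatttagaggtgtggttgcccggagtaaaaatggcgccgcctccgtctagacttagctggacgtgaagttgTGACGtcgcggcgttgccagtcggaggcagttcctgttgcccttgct
Psmb6 (chr11:70525107-70525356, plus strand): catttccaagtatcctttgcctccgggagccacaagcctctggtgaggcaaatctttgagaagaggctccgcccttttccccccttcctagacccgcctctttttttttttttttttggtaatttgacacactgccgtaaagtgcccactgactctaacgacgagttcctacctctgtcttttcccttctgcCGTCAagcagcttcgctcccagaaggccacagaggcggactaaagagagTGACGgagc
Psmd5 (chr2:34870963-34871212, minus strand): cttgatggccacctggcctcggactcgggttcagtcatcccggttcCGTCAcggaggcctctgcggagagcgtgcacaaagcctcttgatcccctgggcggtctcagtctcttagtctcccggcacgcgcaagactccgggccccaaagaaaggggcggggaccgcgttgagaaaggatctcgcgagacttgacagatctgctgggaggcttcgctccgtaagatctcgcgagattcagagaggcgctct
Psme1 (chr14:55578244-55578493, plus strand): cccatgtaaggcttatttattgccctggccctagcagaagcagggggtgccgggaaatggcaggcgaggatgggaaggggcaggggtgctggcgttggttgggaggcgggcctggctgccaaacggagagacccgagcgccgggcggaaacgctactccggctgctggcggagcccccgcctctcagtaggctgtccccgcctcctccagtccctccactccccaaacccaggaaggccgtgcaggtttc
In Psmb5 the marked element began 47 bases before the start, and in Psmb6 the elements began 58 and 9 bases before it. The elements at 47 in Psmb5 and at 9 in Psmb6 also matched the letters of the antioxidant response element, TGACNNNGC, which can overlap TGACG. Psmd5 held 1 CRE-like element, 204 bases before its start. Psme1 had none in this window.

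On either strand, TGACG was found upstream of 15 of 40 members (37.5%), against 19.8% of the 27025 genes in the promoter table. By role, it was found upstream of 6 of 11 constitutive core genes and of 5 of 14 regulatory particle genes (35.7%). TGACNNNGC was found in 5 of 40 members (12.5%), namely Psmb5, Psmb6, Psmc6, Psmd12 and Psmd9, against 11.5% of the table. The CCAAT box, CCAAT, was found in 14 of 40 members, against 37.5% of the table, with 6 of 11 core genes (54.5%) and 4 of 14 regulatory particle genes (28.6%). For interferon, GAAANNGAA was found in 3 of 40 members (Psmb3, Psmd4 and Psmd9) and in 8.18% of the table, and TTCNNNGAA in 1 member (Psmg1) and in 8.13% of the table; these letters were searched after the ratios had been seen. Neither stood in the window of Psme1 printed above. A match of letters is a description of the window and no binding site.

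The 48 members together took a similar part of both libraries, but this sum pools groups that differed in their ratios. Members of the regulatory particle were lower in the library labelled extracranial, while activators and chaperones lay on both sides of an equal ratio. The 48 members summed to 4286 CPM (4264 to 4307) in the library labelled intracranial against 4039 CPM (4015 to 4063) in the one labelled extracranial. The median log2 ratio, extracranial over intracranial, was −0.15 over the 47 members with a ratio, with an SD of 0.35 between members, beside −0.04 over the 21977 genes with 10 or more counts. Of these 47 members, 0 had an interval wholly beyond 2-fold, against 15.6% of all genes tested. Since most members were deeply counted, they were also set beside the 9131 genes with 1000 or more counts over both libraries, whose median was 0.03. Among the 43 members of that depth, 39 had an interval wholly within 1.5-fold (background 69.2%), 1 was higher in the library labelled extracranial beyond 1.5-fold (Psme1, background 10.4%) and 1 was lower (Psmd5, background 9.85%). The interval lay below an equal ratio for 28 of the 43 (background 35.2%) and above it for 8 (background 41.6%). The plot of ratios by member shows the constitutive core around an equal level and the regulatory particle to its left.

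**Figure D1:**
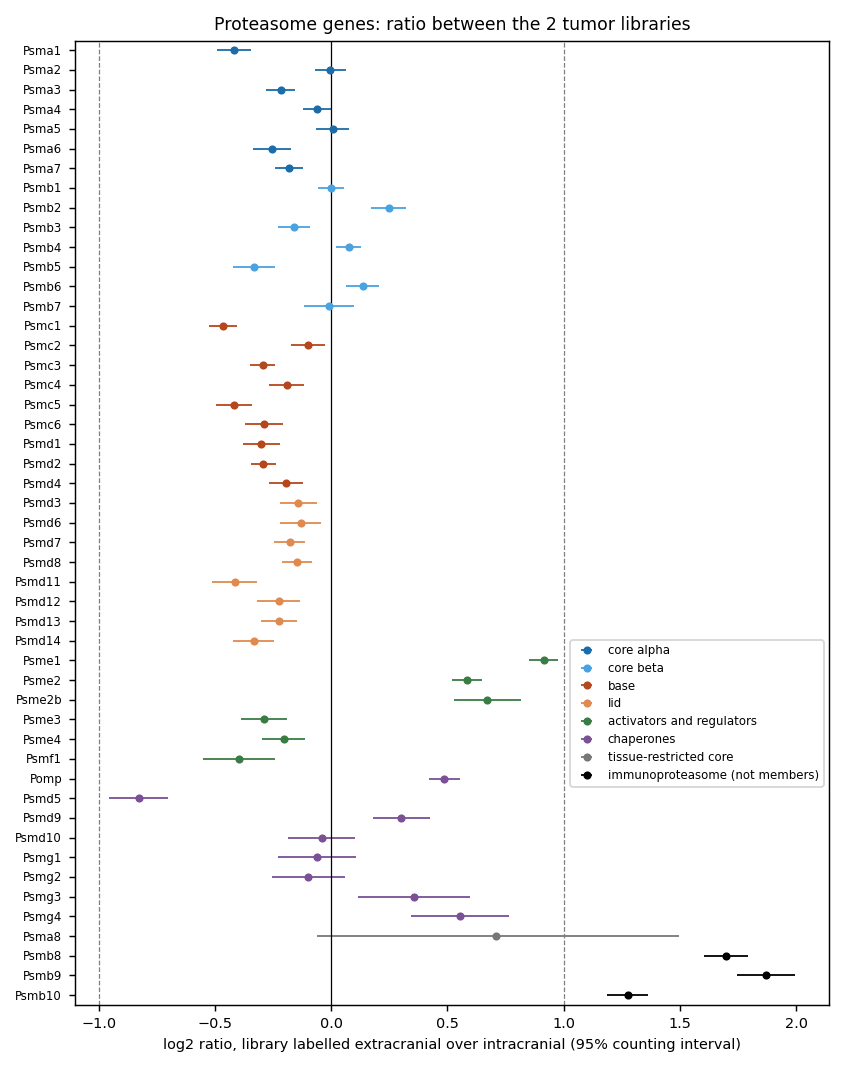
Log2 ratio of each proteasome gene, library labelled extracranial over library labelled intracranial, with its 95% counting interval; the solid line is an equal level, the dashed lines are 2-fold, and colors give the role. Base and lid subunits lie between −0.46 and −0.10, Psme1 at 0.91 and Psmd5 at −0.83 lie farthest out among the members, and the inducible Psmb8, Psmb9 and Psmb10, which are no members, lie at 1.28 to 1.87.

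The constitutive core was at almost the same level in both libraries, with a median log2 ratio of −0.03 and an SD of 0.19 over its 14 subunits. Its summed level was 1674 CPM (1660 to 1687) in the library labelled intracranial against 1591 CPM (1576 to 1606) in the one labelled extracranial. Of the 14, 7 had an interval below an equal ratio (background 35.2%), 3 above (background 41.6%), and 4 spanned it. The 3 above were all beta subunits.

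Among the 7 alpha subunits, which form the outer rings and the gate, the median log2 ratio was −0.18. Of their intervals, 5 lay below an equal ratio (background 35.2%) and 2 spanned it. Psma1 had the lowest ratio of the core, with 4225 and 2436 counts or 122 (118 to 125) and 91.0 (87.5 to 94.7) CPM, a log2 ratio of −0.42 (−0.49 to −0.35). Psma6 (−0.25), Psma3 (−0.22) and Psma7 (−0.18) were also lower in the library labelled extracranial. Psma4 lay at the edge, with 155 and 149 CPM and a log2 ratio of −0.06 (−0.12 to −0.00), and under the size factors of DESeq2 or upper quartile scaling its interval reached an equal ratio. Psma2 (4159 and 3194 counts, −0.00) and Psma5 (3563 and 2757 counts, 0.01) differed by less than their counting error. So subunits that stand in the same ring in equal numbers differed in their ratio by up to 0.42 on the log2 scale. Of Psma5, Psma3 and Psma4, 41.5%, 21.4% and 18.3% of the windows of 1 read length (72 bases) also occur in other annotated genes, so part of their reads may have been counted elsewhere or not at all.

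The 7 beta subunits had a median log2 ratio of −0.00, and the catalytic ones did not move together. Psmb5, which carries the chymotrypsin-like site, had 2605 and 1596 counts or 74.97 (72.1 to 77.9) and 59.6 (56.8 to 62.6) CPM, a log2 ratio of −0.33 (−0.42 to −0.24). Psmb6, which carries the caspase-like site, had 3624 and 3067 counts or 104.3 (101 to 108) and 115 (111 to 119) CPM, a log2 ratio of 0.14 (0.07 to 0.21). Psmb7, which carries the trypsin-like site, had 1624 and 1244 counts or 46.7 (44.5 to 49.1) and 46.5 (43.9 to 49.1) CPM, a log2 ratio of −0.01 (−0.12 to 0.10). Psmb5 was thus lower, Psmb6 slightly higher and Psmb7 not distinguishable at this depth. Of the windows of Psmb5, 42.03% are shared with the predicted gene Gm3375 and with Mir686, and of those of Psmb7, 24.6% lie in the overlapping gene Nek6. Among the structural beta subunits, Psmb2 had the highest ratio of the core, with 86.0 (82.9 to 89.1) and 102 (98.2 to 106) CPM, a log2 ratio of 0.25 (0.17 to 0.32). Psmb4 followed with 0.08 (0.02 to 0.13), Psmb1 was equal with 169 CPM in both, and Psmb3 was lower, with −0.16 (−0.23 to −0.09). Without Psmb3, Psmb5 and Psmb7, the beta subunits with over 10% shared windows, the median of the beta subunits was 0.11; this setting was chosen after the data were seen.

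The 17 Psm-named subunits of the regulatory particle were lower in the library labelled extracranial, whereas Sem1, a small lid protein outside the rule for members, was higher there, with a log2 ratio of 0.20 (0.14 to 0.27). All 17 subunits had an interval below an equal ratio, against 35.2% of genes of this depth, and this held for 17 under TMM, DESeq2 and total count scaling and for 16 under upper quartile scaling, where Psmc2 reached an equal ratio. The ratios were narrow, from −0.46 to −0.10 on the log2 scale, with a median of −0.22 and an SD of 0.11. The particle summed to 1954 CPM (1940 to 1969) in the library labelled intracranial against 1633 CPM (1618 to 1649) in the one labelled extracranial, a log2 ratio of −0.26 (−0.28 to −0.24). As a share of the counts of core and regulatory particle, which no scaling touches, the core took 46.1% (45.9 to 46.4) and 49.3% (49.0 to 49.7).

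The 6 ATPases Psmc1 to Psmc6, which pull substrates into the core, had a median log2 ratio of −0.29. Psmc1 had the lowest ratio of the particle, with 5890 and 3287 counts or 170 (165 to 174) and 123 (119 to 127) CPM, a log2 ratio of −0.46 (−0.53 to −0.40), a 1.38-fold difference. Psmc5 followed with 3762 and 2171 counts and −0.42 (−0.49 to −0.34). Psmc3 (−0.29), Psmc6 (−0.29) and Psmc4 (−0.19) lay between, and Psmc2, with 3584 and 2578 counts and −0.10 (−0.17 to −0.03), was the least different. The ATPases form 1 ring with a single copy of each, and their transcripts thus differed in ratio by less than 1.5-fold among themselves.

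The other base subunits lay in the same range. Psmd2, a scaffold that binds ubiquitin shuttle proteins, had the most counts of all members over both libraries, 7728 and 4865, or 222 (217 to 227) and 182 (177 to 187) CPM, a log2 ratio of −0.29 (−0.34 to −0.24). Psmd1, the other scaffold, on which the ubiquitin receptor Adrm1 sits, had 3284 and 2055 counts and −0.30 (−0.38 to −0.22). Psmd4, itself a ubiquitin receptor, had 3836 and 2581 counts and −0.19 (−0.27 to −0.12).

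The 8 lid subunits had a median log2 ratio of −0.20. Psmd14, the enzyme that takes off ubiquitin chains, had 2709 and 1656 counts or 78.0 (75.1 to 81.0) and 61.9 (58.9 to 64.9) CPM, a log2 ratio of −0.33 (−0.42 to −0.24). Its partner Psmd7 had 4440 and 3024 counts and a log2 ratio of −0.18 (−0.24 to −0.11). The scaffold subunit Psmd11 had the lowest ratio of the lid, with 2457 and 1419 counts and −0.42 (−0.51 to −0.32), and Psmd6 the highest, with 2448 and 1721 counts and −0.13 (−0.22 to −0.04). Psmd12 and Psmd13 (both −0.22), Psmd8 (−0.15) and Psmd3 (−0.14) completed it. Shared windows were 13.1% in Psmd11, 14.1% in Psmd13 (overlapping Sirt3) and 16.2% in Psmd2, and 0 in Psmd14, Psmd7 and Psmd6.

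The markers of keratinocytes (5 of 5) and neutrophils (4 of 5) were lower in the library labelled extracranial beyond 2-fold as well, with Krt5, Krt6a and Ngp at 0 there, and their part in the ratios of the regulatory particle was not tested. The 10 proliferation genes, in contrast, summed to 478 and 676 CPM, with a median log2 ratio of 0.41. All 10 intervals lay above an equal ratio, against 41.6% of genes with 1000 or more counts. Bub1 (324 and 303 counts) and Aurkb (451 and 497 counts) did not reach that depth. Of the 10, 2 were beyond 1.5-fold and 0 beyond 2-fold. Transcript length differed between the parts, with a median principal transcript of 1163 bases in the core and 1636 bases in the regulatory particle. Over the 31 subunits, length and log2 ratio had a Spearman correlation of −0.31, given as a description, and −0.06 and −0.18 within core and particle. Other protein-coding genes with 1000 or more counts were grouped by longest transcript. Their median log2 ratio was 0.07 from 1 to 2 kb, 0.03 from 2 to 4 kb and −0.01 from 4 kb upward. By that length, the medians of core (1220 bases) and particle (1983 bases) both lay in the range from 1 to 2 kb.

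Other large complexes were set beside the proteasome. Of 79 cytosolic ribosomal protein genes with 1000 or more counts, 19 had an interval below an equal ratio (24.1%) and 46 above, with a median log2 ratio of 0.07 and an SD of 0.19. Of 76 oxidative phosphorylation genes of that depth, 25 lay below (32.9%) and 31 above, with a median of 0.04 and an SD of 0.23. The SD of the core (0.19) resembled theirs, whereas that of all 9131 genes of this depth was 1.43. These are descriptions of 2 libraries, and no test of the difference between complexes was made.

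**Figure D2:**
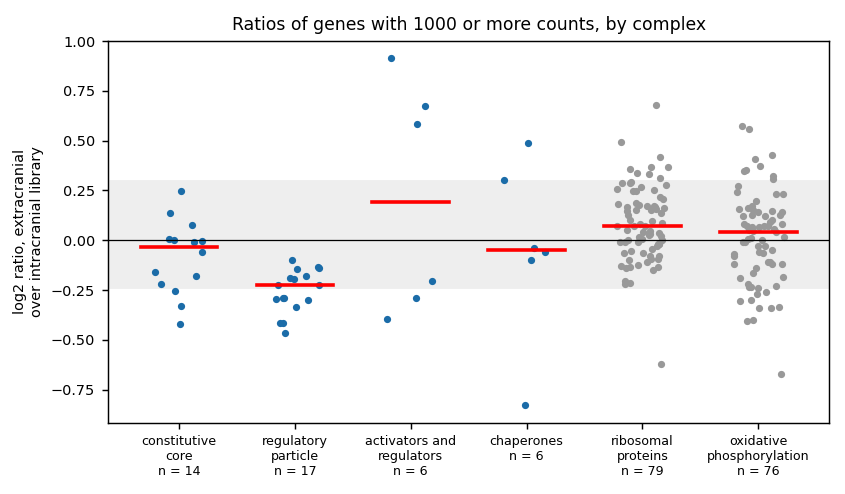
Log2 ratio, library labelled extracranial over library labelled intracranial, of genes with 1000 or more counts, by complex; each point is a gene (blue for proteasome members, gray for the comparison complexes), red bars are medians, and the gray band is the middle 50% of all 9131 genes of this depth, from −0.24 to 0.30. Only 6 of the 8 chaperones reach this depth. All 17 points of the regulatory particle lie below 0, whereas the other groups hold points on both sides of it.

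The 6 activators and regulators split by kind, with 3 above (background 41.6%) and 3 below an equal ratio (background 35.2%). Their median log2 ratio was 0.19 (−0.25 without Psme2 and Psme2b, which share windows). Psme1 and Psme2, the interferon-inducible pair that together form the cytoplasmic activator ring, were higher in the library labelled extracranial, while the nuclear activator Psme3, the large activator Psme4 and the regulator Psmf1 were lower. Psme1 (ENSMUSG00000022216) had 3410 and 4950 counts or 98.1 (94.9 to 102) and 185 (180 to 190) CPM. Its log2 ratio of 0.91 (0.85 to 0.98), 1.88-fold, was the highest of all members and did not reach 2-fold. Psme2 had 3578 and 4135 counts or 103 (99.6 to 106) and 155 (150 to 159) CPM, a log2 ratio of 0.59 (0.52 to 0.65). The annotated copy Psme2b, with 705 and 865 counts, had 0.67 (0.53 to 0.82). Of the windows of Psme2, 52.5% occur in Psme2b and 61.1% of those of Psme2b occur in Psme2, so these values cannot be told apart as separate genes. In Psme1, 4.51% of the windows were shared. On the other side, Psme3 had 2138 and 1348 counts and −0.29 (−0.39 to −0.19). Psme4 had 2303 and 1539 counts and −0.20 (−0.30 to −0.11). Psmf1, which binds the core and can inhibit it, had 946 and 554 counts and −0.40 (−0.55 to −0.24). Psme1 and Psme2 together took 61.1% (60.2 to 62.0) of the counts of Psme1 to Psme4 in the library labelled intracranial against 75.9% (75.1 to 76.6) in the one labelled extracranial.

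Chaperones went both ways as well: of the 8, 4 had an interval above an equal ratio, 1 below and 3 spanning it. Among genes with 1000 or more counts, a depth that 6 of the 8 reached, 41.6% lay above and 35.2% below. The median log2 ratio of the chaperones was 0.13 (−0.040 without Psmg3, which shares windows). Pomp, the maturation protein that is consumed as each core is completed, had 3704 and 4000 counts or 107 (103 to 110) and 149 (145 to 154) CPM, a log2 ratio of 0.49 (0.42 to 0.55). Its ratio was above that of all 14 core subunits. The pairs that start the alpha ring, Psmg1 with Psmg2 and Psmg3 with Psmg4, were less abundant. Psmg1 (696 and 514 counts, −0.06) and Psmg2 (785 and 565 counts, −0.10) had intervals that spanned an equal ratio. Psmg3 had 288 and 284 counts and 0.36 (0.12 to 0.60), and Psmg4 349 and 395 counts and 0.56 (0.34 to 0.77). The base chaperones differed most: Psmd5 had 1694 and 735 counts or 48.8 (46.5 to 51.1) and 27.5 (25.5 to 29.5) CPM. Its log2 ratio of −0.83 (−0.95 to −0.70), a 1.77-fold difference, was the lowest of all members, and 0 of its windows were shared. Psmd9, by contrast, had 1117 and 1060 counts and 0.30 (0.18 to 0.42), and Psmd10, also known as gankyrin, 913 and 684 counts and −0.04 (−0.18 to 0.10). Psmd5, Psmd9 and Psmd10 all bind ATPases during assembly of the base, and their ratios fell into 3 separate ranges.

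The tissue-restricted subunits had few counts. Psma8, the alpha subunit of meiotic male germ cells, had 27 and 34 counts or 0.777 (0.512 to 1.13) and 1.27 (0.880 to 1.78) CPM, and its log2 ratio of 0.71 (−0.06 to 1.49) spanned an equal level. Of 5 meiotic and germ cell markers, summing to 0.9497 and 1.64 CPM, Sycp1 was at 0 in both libraries. Ddx4, with 5 and 21 counts and a log2 ratio of 2.45 (1.001 to 4.21), was the one called beyond 2-fold. Its lower bound lay at the limit, and total count scaling, which moved all log2 ratios by −0.02, takes it under 2-fold. The part of germ cells in the level of Psma8 was not tested. Psmb11, the beta subunit of thymic cortical epithelium, had 1 count in each library, under the floor of 3 counts, so no ratio is given. Of the 2 genes listed for thymic epithelium, Foxn1 had 81 and 0 counts and Prss16 35 and 10. Keratinocyte genes were also higher in the library labelled intracranial (21254 and 0.598 CPM), and which cells carried Foxn1 was not tested. Psmc3ip had 189 and 136 counts and a log2 ratio of −0.10 (−0.43 to 0.23), and 25.7% of its windows overlap Mlx.

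Levels of different genes were compared per kilobase of summed exons within a library. By this length, Psmb4 was the highest member in both, at 91.2 and 96.2 CPM per kilobase, and Psmb7 the lowest core subunit, at 13.7 and 13.6 CPM per kilobase, a range of 6.68-fold and 7.08-fold over the core. The base ran from Psmc1 at 87.7 and 63.5 CPM per kilobase down to Psmd1 at 13.0 and 10.6. The lid ran from Psmd7 at 56.5 and 50.0 CPM per kilobase down to Psmd11 at 11.1 and 8.31. Among activators and regulators, Psme2 was the highest, at 58.4 and 87.6, and Psmf1 the lowest, at 4.23 and 3.21 CPM per kilobase. Among chaperones, Pomp was the highest, at 20.4 and 28.7, and Psmg3 the lowest, at 2.86 and 3.67 CPM per kilobase. The order of the 47 members above the floor was alike in both libraries, with a Spearman correlation of 0.956, given as a description. Of the 46 neighboring pairs in that order, 27 had overlapping intervals in the library labelled intracranial and 31 did in the one labelled extracranial. Summed exons include retained introns, and with the length of the principal transcript the range over the core was 4.04-fold and 3.96-fold, with Psma7 and not Psmb4 as the highest core subunit in the library labelled intracranial.

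**Figure D3:**
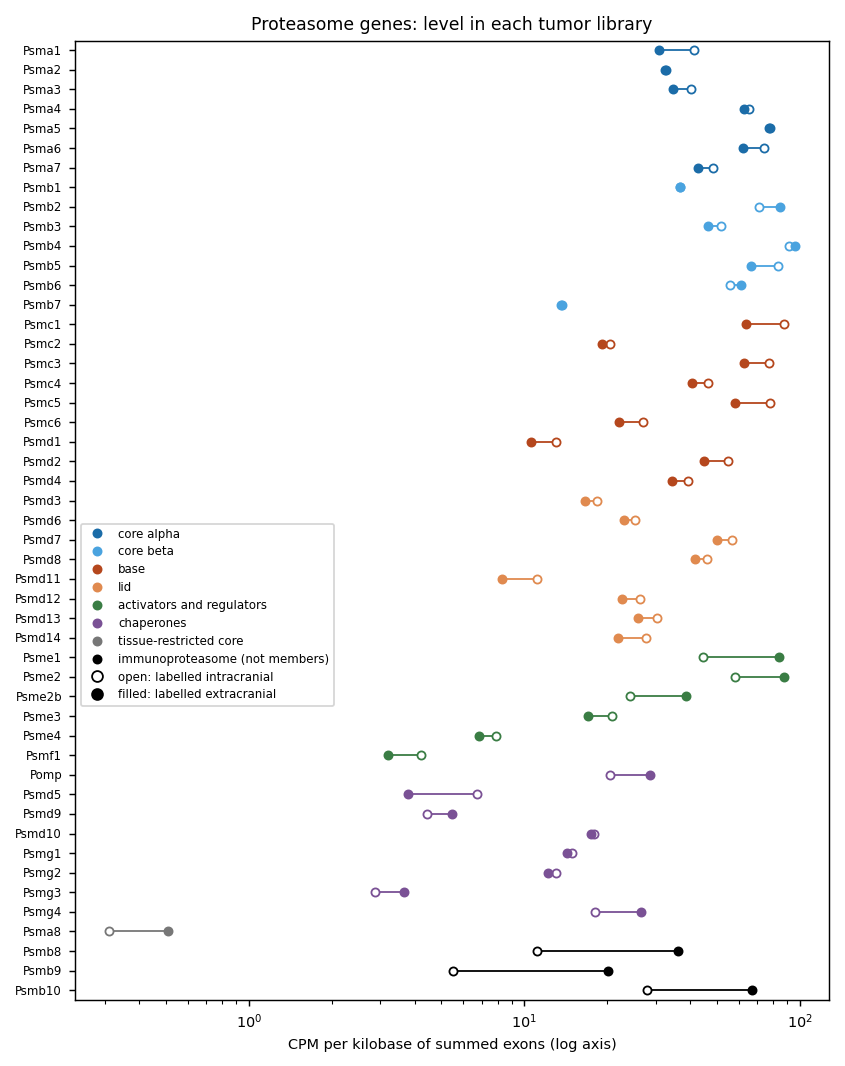
Level of each proteasome gene in CPM per kilobase of summed exons, on a log axis, with open circles for the library labelled intracranial, filled circles for the one labelled extracranial, and colors by role; Psmb11 (under the floor) and Psmc3ip (no subunit) are not drawn. Core subunits other than Psmb7 lie between 30.8 and 96.2 CPM per kilobase, Psma8 lies under 1, and the lines are longest for the inducible subunits, Psme1 and Psmd5.

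The inducible subunits that take the places of Psmb5, Psmb6 and Psmb7 differed far more than their constitutive counterparts. Psmb8 had 1311 and 3276 counts and a log2 ratio of 1.70 (1.61 to 1.79), Psmb9 699 and 1967 counts and 1.87 (1.74 to 1.996), and Psmb10 1648 and 3072 counts and 1.28 (1.19 to 1.36). Per kilobase, Psmb8 made up 11.8% (11.1 to 12.5) of Psmb8 and Psmb5 in the library labelled intracranial against 35.3% (33.9 to 36.7) in the one labelled extracranial. Psmb9 made up 8.98% (8.33 to 9.67) and 24.7% (23.7 to 25.8) of its pair with Psmb6. Psmb10 made up 67.1% (65.5 to 68.6) and 83.2% (82.3 to 84.1) of its pair with Psmb7. Each share was higher in the library labelled extracranial under every measure of length tried, but its size depended on that measure, as with Psmb8, which took 21.7% and 53.1% with the principal transcript. For Psmb8 the counterpart Psmb5 was also lower in that library, whereas Psmb6 and Psmb7 were not. Psmb9 shares 11.0% of its windows with Tap1, which it adjoins.

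**Figure D4:**
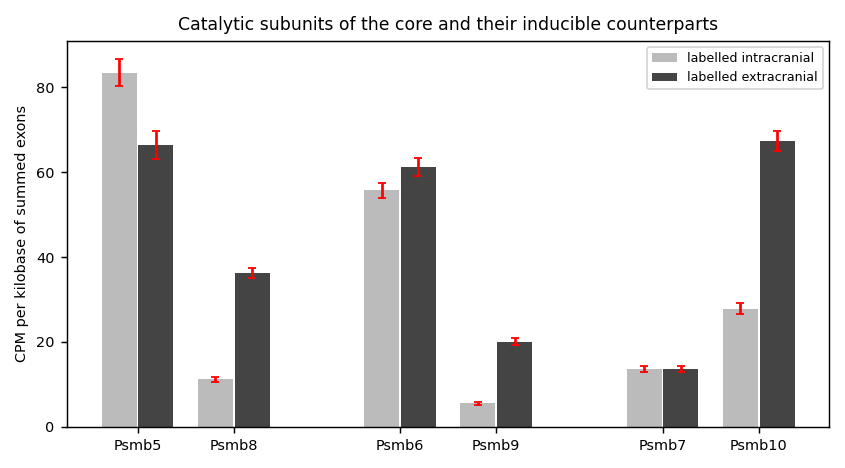
Level of the constitutive catalytic subunits Psmb5, Psmb6 and Psmb7 and of the inducible subunits Psmb8, Psmb9 and Psmb10 that replace them, in CPM per kilobase of summed exons; bars are single libraries and red lines their 95% counting intervals. The inducible subunits lie at 11.2, 5.50 and 27.8 CPM per kilobase in the library labelled intracranial and at 36.2, 20.1 and 67.3 in the one labelled extracranial, while Psmb6 and Psmb7 lie within 55.7 to 61.2 and 13.6 to 13.7.

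Genes that answer to interferon or load peptides were higher along with Psme1, Psme2 and the inducible subunits. Of the 10 genes in that list, 5 were higher beyond 2-fold in the library labelled extracranial, against 15.6% of genes in either direction, and 0 were lower. Besides the 3 subunits these were the transcription factor Irf1 (1710 and 2888 counts, 1.13) and the peptide transporter Tap1 (1569 and 3150 counts, 1.38). B2m, the light chain of class I molecules, had 30202 and 39957 counts and 0.78, and Tapbp had the smallest log2 ratio, 0.19. Macrophage markers were also higher in that library, 5 of 8 beyond 2-fold, with sums of 5587 and 12316 CPM and none at 0. T cell markers summed to 12.4 and 32.8 CPM, and Cd4, Cd8a, Cd8b1 and Cd2 (4 of 7) were higher beyond 2-fold. The intervals of Cd3d (0.32), Cd3e (0.03) and Cd3g (0.18) spanned an equal ratio. The part of these cells in the levels of Psme1, Psme2 and the inducible subunits was not tested.

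Genes of proteins that bind the proteasome were mostly lower in the library labelled extracranial, as was the regulatory particle. Of the 12 such genes analysed, 10 had an interval below an equal ratio (background 35.2%) and 1 above (background 41.6%), with a median log2 ratio of −0.21. They included the ubiquitin receptor Adrm1 (−0.26), the deubiquitinases Usp14 (−0.23) and Uchl5 (−0.34), and the shuttle factor Rad23b (−0.32). The lowest was the shuttle factor Ubqln2 (−0.50) and the highest Sem1 (0.20). None was beyond 2-fold.

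Of 9 genes around NFE2L1, 6 had an interval below an equal ratio (background 35.2%) and 2 above (background 41.6%). Their part in the ratios of the members was not tested. Nfe2l1 had 6489 and 4541 counts and a log2 ratio of −0.14 (−0.19 to −0.08), and its relative Nfe2l2 had 5663 and 3095 counts and −0.49 (−0.56 to −0.43). Ddi2, the protease that releases NFE2L1 from its precursor, was higher (0.31), and Ngly1, which removes its sugars, was slightly lower (−0.17). Of the small Maf partners, Maff had 1005 and 328 counts and −1.24 (−1.42 to −1.06), the only gene of the 9 beyond 2-fold (background 15.6%). Mafk (−0.79) and Mafg (−0.48) were lower as well. Bach1, a repressor at the same elements, had the highest ratio of the list (0.41).

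Genes of ubiquitin itself lay on both sides of an equal ratio. Ubb, a polyubiquitin gene, had 65147 and 70304 counts and a log2 ratio of 0.49, higher in the library labelled extracranial. Rps27a (−0.13), which encodes ubiquitin fused to a ribosomal protein, was lower, as were the activating enzymes Uba1 (−0.17) and Uba6 (−0.22). Of 6 genes around the unfoldase p97, 4 had an interval below an equal ratio (background 35.2%). Among these, Vcp, which encodes p97, was at −0.07, the cofactor Faf1 was the lowest (−0.73) and Nploc4 the highest (−0.00). In both lists 0 of 6 genes were beyond 2-fold. Over the 40 listed genes other than Psmb8, Psmb9 and Psmb10, 3 were beyond 2-fold, namely Irf1, Tap1 and Maff, against 15.6% of all genes tested.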

How the data were processed

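Poly(A) RNA of 2 fresh frozen tumors had been made into directional libraries and sequenced in single reads. The values were whole-number counts for Ensembl gene IDs, which the authors made with STAR (2.7.9a) on GRCm39 and featureCounts, per the submitters' processing notes. Strand use and the handling of reads with several alignments were not given in the sources used here, so overlapping and near-identical genes are uncertain. Symbols, exon lengths and transcripts came from release 21 of the mouse GENCODE annotation. A symbol was found for 94.1% of gene IDs, and IDs without one held 0.694% and 0.950% of the counts.

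Samples were grouped by the localization label, 1 library each. Libraries were scaled with TMM (factors 1.01 and 0.994, edgeR 4.0.16, R 4.3.3), which gave CPM. Ratios of genes with 10 or more counts received a conditional exact binomial (Clopper-Pearson) 95% interval, levels and shares an exact one. A gene was called where its whole interval lay beyond 2-fold. No test could be fitted with 1 library per group, and no p-value is given. The steps were tested on simulated data. Members were named with values by role (core, ATPases, ubiquitin receptors and deubiquitinase, activators, chaperones), by the highest and lowest ratio and level of each group, or by an interval beyond 1.5-fold; the remaining ones are given by their ratio. Members, groups and lists were chosen with earlier results of these data known. Fam192a, now named Psme3ip1, was not counted as a member, and Paaf1 was not analysed here. Some listed genes are not reported here. Alternatives comprised DESeq2 (1.42.0) size factors, total counts, upper quartile scaling, other fold limits and other length measures.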

Additional observations from a re-analysis of the deposited data

How the results depend on the processing

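Of 141 ratios of single members under other scalings (47 members in 3 scalings), 141 stayed within the counting interval of the value reported. The sign turned under at least 1 scaling for Psma2, Psma5, Psmb1 and Psmb7, whose intervals span an equal ratio, and for 0 members whose interval does not. Each scaling moved all log2 ratios by 1 constant, 0.02 (DESeq2), −0.02 (total counts) and 0.04 (upper quartile). The 141 values thus reflect 3 shifts and are no separate checks. The summed level of the members was 4263 CPM (DESeq2), 4311 CPM (total counts) and 4229 CPM (upper quartile) in the library labelled intracranial, and 4093 CPM (upper quartile) in the one labelled extracranial. At 1.5-fold in place of 2-fold, 2 members (Psme1 and Psmd5) and 8 other listed genes were called in place of 0 and 3.

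Settings added after the data were seen left out members with over 10% shared windows, which gave medians of 0.11 for beta subunits, −0.25 for activators and regulators and −0.040 for chaperones (0.19 and 0.13 with all members of the last 2 groups). By construction these have fewer genes, since Psme2, Psme2b and Psmg3 drop out. Shares and levels per length moved with the length measure. Psmb8 took 33.5% and 67.2% of its pair without length, 19.2% and 49.2% with the longest transcript and 21.7% and 53.1% with the principal transcript, an added setting. Psmb9 took 16.2% and 39.1%, 6.07% and 17.7%, and 10.2% and 27.5%, and Psmb10 50.4% and 71.2%, 68.8% and 84.3%, and 47.3% and 68.6%, in the same order. The highest core subunit exceeded the lowest 3.81-fold and 4.04-fold without length, 9.17-fold and 9.72-fold with the longest transcript, and 4.04-fold (Psma7 over Psmb7) and 3.96-fold with the principal transcript. Per kilobase, an added setting, the core took 53.4% and 56.9% of core and regulatory particle.

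No paired analysis was possible because each group holds 1 library. With 1 tumor per label, differences between tumors, locations and cell content cannot be told apart, and depth gave no ratio for Psmb11 and no direction for the 9 members whose interval spans an equal ratio.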
